A study of Mus musculus with 3 samples.

Results

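The sites described here are ZFP410 peaks at the ends of genes that were listed after 3 days in brown adipocyte differentiation medium and not before. A site was taken when a peak of the induced list on chromosomes 1 to 19 or X shared no base with any peak of the untreated ZFP410 list or of the IgG list. Its summit also had to lie within 1 kb of the first or last base of a protein-coding gene (mm10). The rule gave 1166 sites, 15.6% of the 7475 induced peaks, next to 1384 of the 21631 coding genes (6.40%). The sites were thus chosen by the induced, untreated and IgG peak calls themselves, so that contrast is described and not tested.

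ZFP410 binding was mapped by CUT&Tag, a method in which an antibody tethers a transposase near the protein of interest, and the DNA fragments it releases there are sequenced. The cells were brown preadipocytes, taken from the brown fat of wild-type C57BL/6 males, sorted as Lin-CD29+CD34+Sca1+ and grown in DMEM/F12 with serum. There were 3 libraries: anti-ZFP410 on cells induced for 3 days in brown adipocyte differentiation medium, anti-ZFP410 on untreated cells, and control IgG on untreated cells. Each group held 1 library, so the values compare libraries, with no replicate check, and induced cells had no IgG library here. Whether the cells came from pooled animals is not given in the sources used here.

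ZFP410 is a zinc finger protein that recognises a motif printed in capitals with the Chd4 and Lin54 sequences. In red cell precursors of mouse and human it is known for occupying clusters of this motif near Chd4, the gene of a NuRD remodelling ATPase, and few other places. Promoters of genes that every cell uses are open and rich in CpG, and a transposase also cuts open chromatin at a low rate without the antibody's target. Sites at gene ends therefore had to be set against promoters in general and against the depth of each library.

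Promoter sequences show what lies under the strongest of these sites. The stretches printed first are from the 8 sites with most fragments among those that the untreated library could have listed even at the lower counting bound (defined with the sizes of the sites), where the summit fell between 250 bases before and 30 bases after a start in the promoter table. They come from RefSeq (GRCm38.p6, the coordinates of mm10), run 5′ to 3′ along the gene, span 120 bases around the summit and end at most 30 bases past the start. Capitals mark matches on either strand to the motifs searched. One is the GC box GGGCGG, a site of SP family factors. Another is the CCAAT box, spelled as its name. The core of the motif of ETS factors was searched as CCGGAAG. The core of a cAMP response element, read by CREB family factors, was searched as TGACG. The motifs of NF-kB and ZNF143 are in capitals at Cxcl1 and at Zfp260. The Nfkbia stretch holds none of them, which says nothing of the bases past its ends.
Nfkbia (chr12:55492671-55492790, minus strand): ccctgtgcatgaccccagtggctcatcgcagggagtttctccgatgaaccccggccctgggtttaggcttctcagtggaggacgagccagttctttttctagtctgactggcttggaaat
Zfp260 (chr7:30094986-30095105, plus strand): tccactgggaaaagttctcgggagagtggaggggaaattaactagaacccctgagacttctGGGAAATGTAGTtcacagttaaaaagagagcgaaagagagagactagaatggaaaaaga
Sirt2 (chr7:28766515-28766634, plus strand): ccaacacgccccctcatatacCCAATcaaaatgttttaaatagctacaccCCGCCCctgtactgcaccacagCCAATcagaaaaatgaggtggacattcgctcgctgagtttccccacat
Cxcl1 (chr5:90891138-90891257, plus strand): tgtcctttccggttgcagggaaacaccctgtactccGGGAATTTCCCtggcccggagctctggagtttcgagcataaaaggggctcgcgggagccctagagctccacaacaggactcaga
Sesn1 (chr10:41810346-41810465, plus strand): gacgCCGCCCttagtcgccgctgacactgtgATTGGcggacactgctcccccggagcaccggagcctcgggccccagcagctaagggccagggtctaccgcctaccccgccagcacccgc
Raly (chr2:154791020-154791139, plus strand): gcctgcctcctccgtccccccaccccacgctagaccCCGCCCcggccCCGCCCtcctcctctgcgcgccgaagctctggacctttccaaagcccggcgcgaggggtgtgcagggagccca
Anapc2 (chr2:25272344-25272463, plus strand): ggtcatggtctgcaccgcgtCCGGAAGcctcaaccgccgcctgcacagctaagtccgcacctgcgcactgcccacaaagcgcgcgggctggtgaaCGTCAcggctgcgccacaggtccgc
Lsm3 (chr6:91515845-91515964, plus strand): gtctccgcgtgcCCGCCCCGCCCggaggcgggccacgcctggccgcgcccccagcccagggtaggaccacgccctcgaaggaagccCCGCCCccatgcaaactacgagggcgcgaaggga

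None of these stretches holds the ZFP410 motif either. The nearest matches among all promoters at the 1166 sites had 1 mismatch and were at Mrpl33, a mitochondrial ribosomal protein gene, and Cbx8, a Polycomb gene. Below they stand beside the exact motif in promoters of Lin54 and Chd4, whose sites overlapped an untreated peak and are shown for comparison, with the match in capitals. The site at Mrpl33 held 5 fragments and the one at Cbx8 held 6, against 5 at Lin54 and 52 at Chd4, all in the induced library. None of these matches lay at the summit of its site. The summit was 616 bp past the start at Lin54 and 698 bp past it at Cbx8, outside the promoter window. The Chd4 summit lay before both starts and also outside their windows. At Mrpl33 the printed stretch ended before the peak began.
Mrpl33 (chr5:31613803-31613862, plus strand): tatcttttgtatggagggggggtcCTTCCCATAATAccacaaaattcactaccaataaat
Cbx8 (chr11:119040890-119040949, minus strand): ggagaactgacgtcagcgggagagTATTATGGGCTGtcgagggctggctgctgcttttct
Lin54 (chr5:100500610-100500662, minus strand): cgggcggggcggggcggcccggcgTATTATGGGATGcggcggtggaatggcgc
Chd4 (chr6:125095731-125095766, plus strand): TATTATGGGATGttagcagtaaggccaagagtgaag
Chd4 (chr6:125095913-125095952, plus strand): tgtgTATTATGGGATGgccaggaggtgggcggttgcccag

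The promoter windows ran from 250 bases before to 50 after each start within 1 kb of a member summit. Over all of them, 0 of 1210 held the ZFP410 motif on either strand (upper 95% Wilson limit 0.316%). At sites that overlapped an untreated peak it was in 3 of 437 windows, or 0.686% (95% Wilson interval 0.234 to 1.999), at the 2 genes Lin54 and Chd4. Among all 21045 windows of coding genes it was in 4, or 0.0190% (0.00739 to 0.0489). Weighted to the GC content of the member windows that share was 0.0239%, under the upper limit at the members. With a motif this rare, 0 of 1210 does not set member windows apart from coding windows in general. With 1 mismatch allowed the counts were 2 of 1210 and 4 of 437 windows at the 2 kinds of site and 19 of all 21045. No match says only that these letters are not in the window, and genes with several starts give several windows.

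The member promoters were CpG-rich and carried the common elements of active promoters. Their windows had a median GC content of 62.3% (quartiles 57.0 and 68.0) and a median of 23 CpG dinucleotides, against 63.7% and 24 at sites overlapping an untreated peak and 56.7% and 13 over all coding windows. The ETS core was in 22.2% of member windows (19.98 to 24.7), against 22.7% (18.98 to 26.8) at sites overlapping an untreated peak and 11.7% over all coding windows. Weighted to the GC content of the member windows, all coding windows gave 15.01%. GGGCGG, bound by SP factors, was in 70.2% of member windows and 46.7% of all coding windows, or 62.6% at matched GC. TGACG was in 39.9% of member windows, against 23.8% of all coding windows and 28.2% at matched GC. This core is part of the full element TGACGTCA, which was in 4.63% of member windows (3.58 to 5.96) and 2.26% of all. These elements were not particular to the members. At sites overlapping an untreated peak GGGCGG was in 75.5% of windows (71.3 to 79.3) and TGACG in 40.7% (36.2 to 45.4). The full element was in 5.95% there (4.09 to 8.57).

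Of the rarer elements, the ZNF143 and NRF1 motifs and a palindrome centred on CGCG were more frequent at member promoters than over all coding windows. The NF-kB and heat shock motifs were not. The AP-1 motif was in 2.89% of member windows (2.09 to 3.996), against 4.69% of all coding windows and 3.76% at matched GC. The share at matched GC lay inside the member interval, so a lower frequency was not shown once GC content was matched. The palindrome was in 2.48% of member windows (1.74 to 3.52), against 0.679% of all coding windows and 0.929% at matched GC. The NRF1 motif was in 2.56% of member windows (1.81 to 3.61), against 1.34% of all and 1.77% at matched GC. The ZNF143 motif, added after the sequence at Zfp260 had been seen, was in 74 member windows, or 6.12% (4.90 to 7.61), against 4.35% (2.80 to 6.69) at sites overlapping an untreated peak and 2.57% over all coding windows, or 2.74% at matched GC. Where the summit itself fell in the window, its share was 7.97% (6.03 to 10.5) of 577. The NF-kB motif seen at Cxcl1 was in 1.49% of member windows (0.943 to 2.34) and 1.46% of all. At the 42 sites that could have been listed even at the lower counting bound it was in 2 of 40 windows (5%, 1.38 to 16.5). The heat shock element was in 0.413% of member windows (0.177 to 0.964) and 0.523% of all. TATAAA was in 4.46% of member windows (3.44 to 5.78), below the 12.7% of all coding windows and the 7.01% at matched GC. At sites overlapping an untreated peak it was in 6.18% of windows (4.28 to 8.84). There the palindrome was in 1.60% (0.778 to 3.27) and the NRF1 motif in 2.52% (1.41 to 4.45). These intervals overlap those of the members.

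The sites clustered at transcription starts. Orientation was known for 979 of the 1166 sites, those with a neighbouring gene in the promoter table. Of these, 905 (92.4%, 90.6 to 93.9) had a summit within 1 kb of a listed start, and 669 (68.3%, 65.4 to 71.2) within 250 bp of it. The distance to the nearest start had a median of 139 bp (quartiles 59 and 258). At sites overlapping an untreated peak the share within 1 kb was 94.0% (91.1 to 96.1) and the share within 250 bp was 66.5% (61.4 to 71.2), which overlap the shares of the members. Member summits lay downstream of the start at 44.2% of sites (41.0 to 47.5), against 35.3% (30.4 to 40.6) where an untreated peak overlapped, and these intervals do not overlap. Sites of the untreated list alone gave 58.3% (51.6 to 64.7), from 211 sites.

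**Figure D1:**
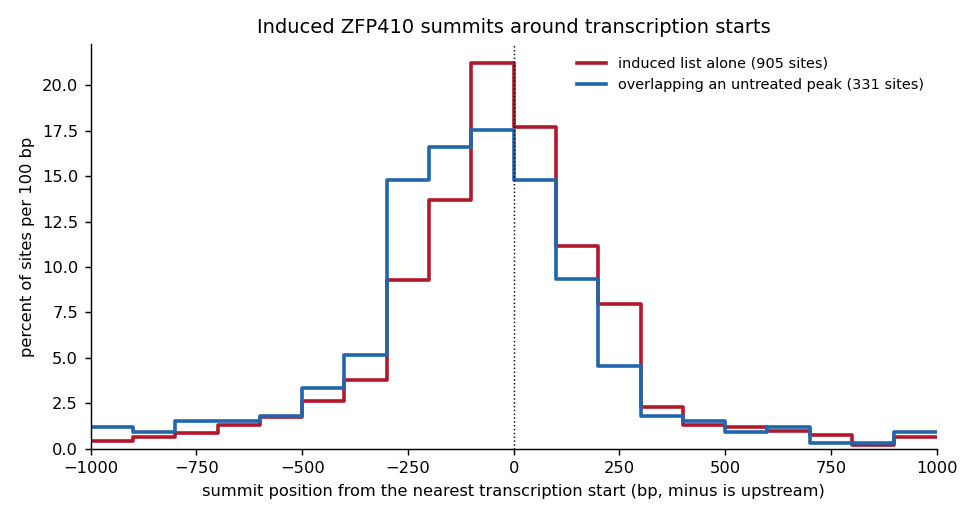
Position of induced ZFP410 summits from the nearest listed transcription start, in bp along the gene, as percent of sites per 100 bp, for 905 sites of the induced list alone (red) and 331 that overlapped an untreated peak (blue). Both peak in the 100 bp before the start, with 21.2% of the red and 17.5% of the blue sites there.

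Many of these starts faced another start. Of the 905 sites, 174 (19.2%, 16.8 to 21.9) lay within 1 kb of starts on both strands, against 14.2% (10.8 to 18.4) of sites overlapping an untreated peak. By gene, 328 of 1037 genes with a member at their start (31.6%, 28.9 to 34.5) had an opposite start within 1 kb, against 93 of 375 genes with a site overlapping an untreated peak (24.8%, 20.7 to 29.4) and 9.73% of all 17274 genes with a promoter entry. A site between 2 genes counts for both, which raises such shares in any list of promoter peaks. Over all 1166 sites, 876 stood at 1 gene, 282 at 2 and 8 at 3. Chromosome 7 held most, 102, and chromosome X 13.

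Sizes were small. A summit held a median of 7 fragments (quartiles 5 and 9, range 4 to 38) in the induced library, and a peak was a median of 256 bp wide. Induced gene-end sites that overlapped an untreated peak held a median of 10 fragments (quartiles 7 and 15, highest 104) over 393.5 bp, and there were 424 of them. The 1875 induced-only sites inside genes held a median of 7, and the 2645 between genes a median of 6. The genome background, the level the caller assumes where no local one is higher, was 0.246 fragments in the induced and 0.1099 in the untreated library. These rest on fragment numbers worked back from the authors' deposited fold and p-value of each peak, by a search over whole numbers only.

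The ratio of these backgrounds, induced over untreated, was 2.24, and the steps by which local backgrounds moved gave a relative depth of 2.01, so a site of the same enrichment could pass unlisted before induction. For each site the untreated listing number was taken as the least number of summit fragments that would have reached the weakest (highest) p-value of the untreated list at the same local background. It was 3 at 926 sites and 4 to 17 at the others. The induced fragments divided by 2.24 gave the number expected in the untreated library at equal enrichment, with a median of 3.12. That number reached the listing number at 494 sites (42.4%, 39.6 to 45.2), next to 614 genes or 2.84% of all coding genes. At the other 672 it fell below, so there the absence of an untreated peak does not separate a lower level from an equal one.

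A firmer bound left few sites. With the lower end of the 95% Poisson interval of the induced fragments, 42 sites (3.60%) still reached the listing number, a count of 77 by relative depth and 94 with local backgrounds ignored. A second bound also allowed for counting error in the untreated library. It set the induced enrichment against the most that could have stayed unlisted there, 1 fragment under the listing number, with an exact binomial interval, and its lower limit exceeded 1 at 8 sites. This second bound was added after the data had been seen. All 1166 sites were chosen for being listed in the induced library and not in the untreated one, which favours the induced library in each of these numbers. The limit was taken at each of the 1166 sites with no allowance for their number, so it describes sites and tests none. The IgG library was shallower still, and 2 of the 1166 sites would have reached its own listing number at equal enrichment.

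**Figure D2:**
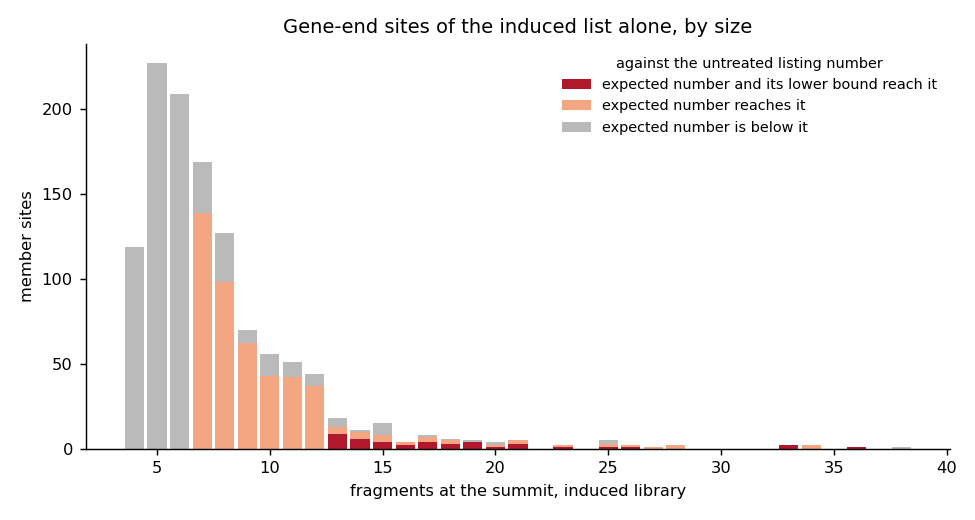
Number of member sites by fragments at the summit in the induced library. Colours give how the number expected in the untreated library compares with its listing number: red where the lower 95% bound reaches it (42 sites), orange where the expected number alone does, grey where it does not (672 sites). All sites of 4 to 6 fragments are grey.

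The site at St13 and Xpnpep3 had the most room for a difference. St13 encodes a cochaperone that binds Hsp70, and Xpnpep3 a mitochondrial aminopeptidase. The site, chr15:81399588-81400279, held 33 fragments in the induced library at the genome background, and was not listed in the untreated library, where 14.7 were expected at equal enrichment (10.1 to 20.7) and 3 would have been listed. Its enrichment was 7.36 times the most that could have gone unlisted there, with a lower limit of 1.88. The nearest untreated summit lay 191276 bp away.

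At Cdca2, which encodes a subunit that brings protein phosphatase 1 to mitotic chromatin, and its neighbour Kctd9, the site chr14:67715693-67716430 also held 33 induced fragments. The local background was raised there, to 1.03 fragments, so 5 fragments were needed in the untreated library, and the ratio had a lower limit of 1.31. Nfkbia, encoding the inhibitor that holds NF-kB in the cytoplasm, had 36 induced fragments at chr12:55492464-55492965, with the summit 83 bp before its start. Over a background of 2.53 its listing number was 7, against 16.1 expected, and the lower limit was 1.12.

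Atf1, which encodes a transcription factor of the CREB family, held 21 induced fragments at the genome background (chr15:100226731-100227705). At equal enrichment 9.37 were expected before induction, and the lower limit was 1.15. The Atf1 summit was 745 bp before its start. Sesn1, a stress-induced gene whose product restrains mTORC1, shared a site of 19 induced fragments with Cep57l1 (chr10:41809949-41810661). Raly, an hnRNP gene, held 19 as well (chr2:154791053-154791556). The lower limit was 1.023 at both. Ppm1d, encoding a phosphatase that dampens p53 signalling, held 26 over a background of 0.908 (chr11:85310463-85311110), with a lower limit of 1.01. None of the 8 sites had an untreated summit within 5 kb, the nearest being 12371 bp from the Sesn1 site. By depth in place of genome background 15 sites passed this bound, and 32 did when the raised local backgrounds were ignored.

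Fragments alone were a poor guide, since 22 of the 25 sites with most fragments at named genes lay over a raised local background. Of all 1166 sites 377 did (32.3%, 29.7 to 35.1). Predicted genes were skipped for these 25, which left out a site of 25 fragments at Gm40469, over a background of 7.72. The site at Ap2a1, a gene of the clathrin adaptor AP-2, and Tsks led with 38 induced fragments, but over a background of 12.2 its fold was 2.96 and 17 fragments would have been needed in the untreated library, where just under that, 17.0, were expected. Wee1, whose kinase restrains CDK1, held 34 over 9.75, with 15.2 expected against a listing number of 15. Evi5l also held 34, over 6.55. Cacng2, which encodes an auxiliary subunit of AMPA receptors, held 25 over 8.94 with 11.2 expected against a listing number of 14. Of these 25 sites the expected number reached the listing number at 22 and its lower bound did so at 10.

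The other sites among the 25 held 20 to 28 fragments. Sites of 28 fragments stood at Cdca3 and Usp5, which encodes an enzyme that takes apart free ubiquitin chains, and at Wls, needed for Wnt secretion. Yju2, a splicing factor gene, held 27 and Nfib, a transcription factor gene, 26. The pro-apoptotic gene Bad, Mrgprf and Tedc1 held 25 each. Zfp260 and Zfp715, both zinc finger genes, held 23, over backgrounds of 1.22 and 4.14. Nfkbib, encoding a second inhibitor of NF-kB, shared a site of 21 with Sirt2, a deacetylase gene, and Cxcl1, a chemokine gene, held 20. Csrnp1 had 21, as did the site of Klhl28 and Togaram1, and Uvrag, an autophagy gene, had 20, as did the site of Mkks and Slx4ip. Among these, the lower bound reached the listing number at Mrgprf, Zfp260, Nfkbib with Sirt2, and Cxcl1.

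**Figure D3:**
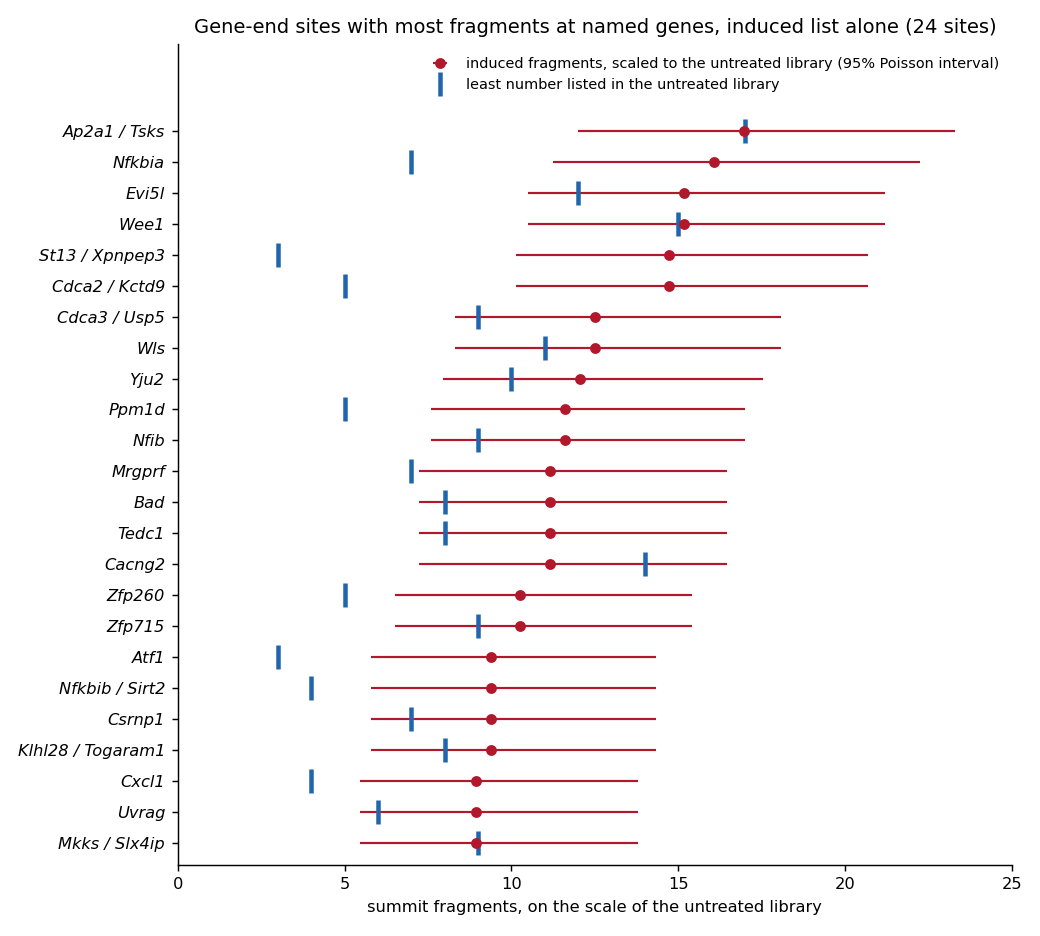
Of the 25 sites with most induced fragments at named genes (predicted genes skipped), the 24 reported here, from the top. Red points are induced fragments divided by 2.24, with their 95% Poisson interval, and blue bars the least number that would have been listed in the untreated library; the axis is in fragments of that library. The blue bar lies left of the whole red interval at 9 of those drawn, among them St13 / Xpnpep3, Nfkbia and Atf1.

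Listing before induction followed size, and up to 10 fragments it was more frequent at gene ends than between genes. Among induced sites at the genome background, 11.7% of gene-end sites with 4 fragments (6.97 to 19.01) overlapped an untreated peak, against 4.14% (2.02 to 8.30) inside genes and 1.85% (0.791 to 4.25) between genes. At 5 fragments the shares in that order were 10.7% (7.19 to 15.7), 6.82% (4.59 to 10.03) and 4.82% (3.26 to 7.07), and at 6 to 7 they were 19.3% (15.5 to 23.7), 14.2% (11.4 to 17.6) and 10.7% (8.61 to 13.3). Gene ends and gene bodies had overlapping intervals at each of these 3 sizes. At 8 to 10 fragments the shares were 36.8% (30.8 to 43.1), 22.4% (18.6 to 26.8) and 21.7% (17.9 to 26.0), where the gene-end interval lay above both others, and at 11 to 15 they were 47.9% (39.2 to 56.8), 41.1% (34.7 to 47.8) and 43.8% (37.5 to 50.3), with all intervals overlapping. Above 20 fragments 35 of 38 gene-end sites overlapped one, or 92.1% (79.2 to 97.3), which left 3, those at St13 and Atf1 among them. Over all sizes 27.7% of gene-end sites did (25.1 to 30.4), against 21.6% (19.7 to 23.6) and 17.2% (15.6 to 18.8). Counting error alone at equal enrichment would list 59.5% of these gene-end sites. Sizes read in the induced library favour it, which that share does not allow for.

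**Figure D4:**
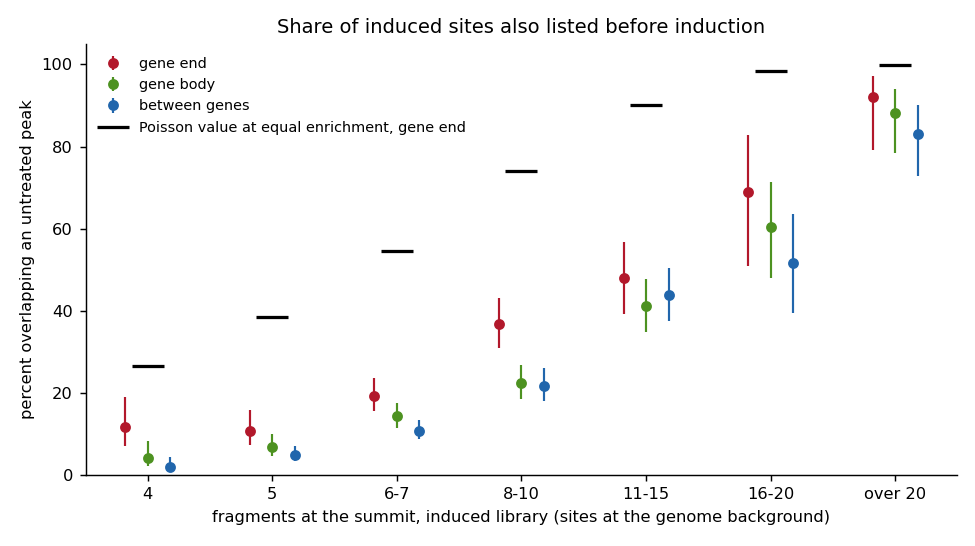
Percent of induced sites that overlapped an untreated peak, by fragments at the induced summit, for sites at the genome background at gene ends, inside genes and between genes (points, 95% Wilson intervals). Black bars give the share that Poisson counting would list at equal enrichment. Gene-end sites run between 10.7% at 5 fragments and 92.1% above 20, under the black bars throughout.

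Genes of protein turnover and folding had a member site. Of all coding genes 6.40% had a member site (1384 of 21631, median 7 fragments), and this is the background for each list. A site shared with a neighbouring gene counts for each gene, and the neighbour is not always named. Proteasome genes stood at 11 of 45 (24.4%, 14.2 to 38.7; median 8 fragments). Psmd5, encoding an assembly chaperone of the proteasome, held 16 fragments, and Psma4, Psmd12 and Psme2, of the core, the lid and an activator, held 12 each. At 8 of the 11 the expected number reached the untreated listing number. At Psme2 it did not, with 5.36 against 7. Chaperone genes stood at 12 of 53 (22.6%, 13.5 to 35.5; median 7), led by St13 with 33, Dnaja1 with 12, and Hsp90b1 and Cct5 with 10. An untreated summit lay 459 bp from that of the Dnaja1 site, again in a peak that shared no base with it. Of the chaperone genes, 11 had a site that overlapped an untreated peak, where 2.28% of all coding genes did. The list labelled ubiquitin ligase and COP9 signalosome subunits stood at 9 of 43 (20.9%, 11.4 to 35.2), with Cops4 at 18 and Ube2m at 10. It also holds enzymes of these pathways that are neither, Ube2m among them.

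Genes of RNA processing and translation also had them. Splicing and hnRNP genes stood at 13 of 59 (22.0%, 13.4 to 34.1; median 9), with Raly at 19, Hnrnpc at 15, Hnrnpul2 at 13 and Hnrnpa1 at 12. At 6 of the 13 sites the expected number reached the untreated listing number. It fell short at Hnrnpc, with 6.70 against 7, and at Hnrnpul2, whose site also served Ttc9c, with 5.80 against 9. Cytosolic ribosomal protein genes stood at 15 of 80 (18.8%, 11.7 to 28.7; median 8), led by Rps19 with 17, Rpl13a with 14 and Rps29 with 11. The expected number reached the listing number at 9 of their 16 sites, and not at Rps29, with 4.91 against 6. In this list 1 gene had a site that overlapped an untreated peak. Mitochondrial ribosomal protein genes stood at 13 of 79 (16.5%, 9.88 to 26.1) with a median of 5, and Mrpl11 highest at 9. Mrpl46 and Mrps11 shared a site of 5. Translation factor genes stood at 6 of 49 (12.2%, 5.73 to 24.2), with Eif5a at 17 and Eif4e at 13. Housekeeping genes, the comparator for open chromatin, stood at 4 of 28 (14.3%, 5.70 to 31.5), and their interval overlapped that of each list named so far. Rpl13a and Rplp0 count in both this list and the ribosomal one.

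Of the metabolic lists, fatty acid oxidation had the highest share. It stood at 9 of 26 (34.6%, 19.4 to 53.8; median 6), an interval that overlapped that of housekeeping genes (5.70 to 31.5). Ech1 held 13, Acaa2 and Acadm 11 each, and Acsl1 10, and at these 4 the expected number reached the untreated listing number. An untreated summit lay 305 bp from that of the Acadm site, in a peak that shared no base with it. Hadha and Hadhb, which encode the subunits of the mitochondrial trifunctional protein, shared a site of 6, and Acaa1a shared one of 6 with Myd88. Oxidative phosphorylation genes stood at 6 of 75 (8%, 3.72 to 16.4), near the background, with Cox8a at 10 and Ndufs8 at 8.

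Genes of the fat cell programme were at or below the background in member sites, with intervals that span it. Of 45 adipogenic and lipid storage genes 2 had a member site (4.44%, 1.23 to 14.8). They were Dgat2, whose enzyme makes triglyceride, with 9 fragments, and Fasn, fatty acid synthase, with 8, each expected above the listing number. A site that overlapped an untreated peak stood at 3 of the 45 genes and at 0 of 30 brown thermogenic genes, where 2.28% of all coding genes had one. Of the 30 thermogenic genes 1 had a member site (3.33%, 0.591 to 16.7). It was Esrra, an orphan nuclear receptor gene, with 6 fragments at a site that also served Catsperz. There 2.68 would have been expected against a listing number of 3. Preadipocyte and matrix genes stood at 0 of 21 and markers of other cell types at 0 of 28, which allow upper Wilson limits of 15.5% and 12.1%. The 10 defining markers of preadipocytes and the 10 of brown adipocytes held no gene-end site in the induced list, and 1 preadipocyte marker held one in the untreated list, so these lists do not check the labelled cell type.

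Stress and signalling genes were among the members. Stress response and autophagy genes stood at 10 of 44 (22.7%, 12.8 to 37.0), with Sesn1 at 19, and Trp53, which encodes p53, and Gabarap, an autophagosome gene, at 11 each. The Trp53 site also served Wrap53, and a second member of 6 fragments stood beside it. The Gabarap site also served Phf23, whose start was the nearest listed. Ddit3 held 9. Prostaglandin and cAMP signalling genes stood at 7 of 35 (20%, 10.04 to 35.9; median 6), with Atf1 at 21, and Atf2 and Gnai2 at 7. Prkaca, the catalytic subunit gene of protein kinase A, held 6, where 2.68 were expected in the untreated library. The m6A list stood at 5 of 24 (20.8%, 9.24 to 40.5), with Fto, Hnrnpc and Prrc2a at 15 each. The backgrounds of these 3 sites were raised, and of the 5 genes only Prrc2a was expected above its listing number, with 6.70 against 6. The Fto site also served Rpgrip1l, whose start was the nearest listed, and the Hnrnpc site also served Rpgrip1. Cell cycle genes stood at 4 of 43 (9.30%, 3.68 to 21.6), with Cdca2 at 33 and Cdk4 at 14, and NuRD genes at 2 of 15, Mbd3 with 12 and Mta2 with 8.

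**Figure D5:**
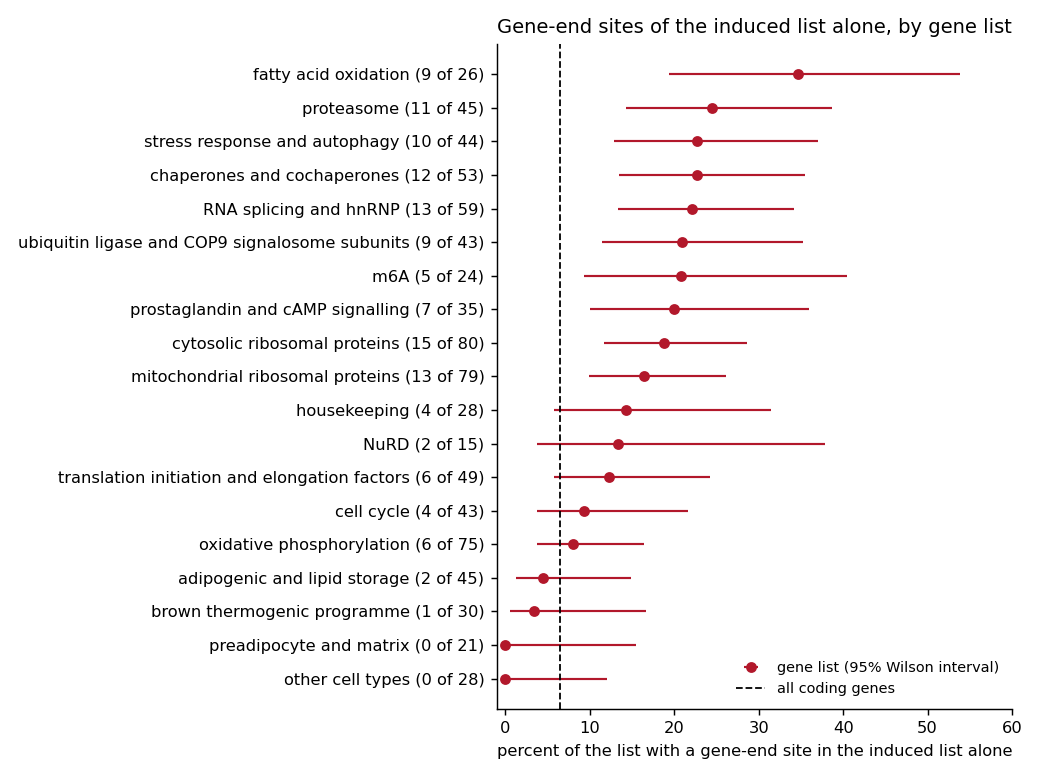
Percent of each gene list with a gene-end site in the induced list alone (points, 95% Wilson intervals, counts in the labels), ordered by that percent. The dashed line is the share of all coding genes, 6.40%. Fatty acid oxidation is highest at 34.6%, and the adipogenic, thermogenic, preadipocyte and other cell type lists lie left of the line.

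Zfp410 itself had a member site of 5 fragments, which also served Ptgr2, where 2.23 were expected in the untreated library and 3 needed. Chd4, Wtap and Ptger3 had no member site. A member was a site and not a gene: 67 of the 1384 genes (4.84%) also had an untreated gene-end site, and 136 (9.83%) held some untreated peak within the gene or 1 kb of it. An untreated summit lay within 500 bp of 24 sites and within 5 kb of 91 (7.80%), and the median distance was 124874 bp. The rule's edges passed close by. The sites at Arpc3 and Flvcr1 ended 1 bp from an untreated peak, while Eef2 was left out for 2 shared bases. By distance, Psmd5, Itih1 and Stambp were in at 996, 995 and 994 bp, with 16, 11 and 8 fragments, and Cobll1, Azin1 and Ccdc34 out at 1001, 1009 and 1010 bp, with 4, 5 and 5.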

How the data were processed

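Per the submitters' processing notes, the tools were MACS2 2.1.1, Bowtie2 2.2.6 and Picard, and the build mm10. Which control the caller had, how duplicates were treated and how many reads each library held were not stated there. The deposited lists, 1 per library, hold for each peak a score, a fold (ratio) over the local background, the −log10 of the p-value and q-value, and the summit, and peak names carry a q of 0.1. From the authors' fold and p-value, Poisson inversion gave whole summit fragments and a local background (gap under 0.001 in −log10 p) for 7473 of 7475 induced, 3255 of 3256 untreated and all 480 IgG peaks, and the step was tested on simulated data. At 111 pairs of induced and untreated summits within 20 bp and over raised backgrounds, the backgrounds had a median ratio of 2.24, with 81 within 1% of it, so the local background was carried from one list to the other. A minimum peak width, which the caller also asks for, was not modelled.

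Genes were the 21631 protein-coding genes of GRCm38.p6 on chromosomes 1 to 19 and X, of which 17274 had promoter windows in the RefSeq table (21045 windows). Named genes were the 25 sites with most fragments (predicted genes, with symbols of Gm and digits or ending in Rik, skipped), up to 4 genes of each list, the edges of the rule, and Zfp410, Chd4, Wtap and Ptger3; other members of a list were named where a shared site or a listing number called for it. One site that these rules would name is not reported here by name, and counts include it. Members and lists were chosen with earlier results of these data known. Shares have 95% Wilson intervals. Motif shares at matched GC weight all coding windows to the member windows over 4 GC ranges. Intervals cover counting error only. With 1 library per group no test was run. Python 3.11.15, NumPy 2.4.6, pandas 2.3.3 and SciPy 1.17.1 were used.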

Additional observations from a re-analysis of the deposited data

How the results depend on the processing

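No paired analysis was possible because each group held 1 library, and no library could be left out. Windows of 500 bp and 2 kb gave 5.43% and 7.499% of coding genes with a member and 95.6% and 83.5% of oriented sites at a start. Induced peaks with a −log10 q of at least 5 left 480 sites, 600 genes and 2.77% of coding genes, and a fold of at least 5 left 715, 876 and 4.05%. Scaling by depth raised the sites above the listing number at the lower bound from 42 to 77, those with a bound above 1 from 8 to 15, and the median ratio bound of all sites from 1.34 to 1.49. The genome background alone, with no local one, gave 94, 32 and 1.56. A start within 250 bp gave 68.3%. The count of sites expected above the listing number, 494, lay between 416 and 611 in all 8 settings tried for it. Exact ZFP410 motifs numbered 0 in all 6 settings of window, distance and threshold. Those settings drew on overlapping sets of sites, and the motif is rare in all promoters, so they add no separate check. Depth limits the rest: summits of 4 to 6 induced fragments, 555 sites, were all expected below the listing number at equal enrichment.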
